A study of Mus musculus with 64 samples.

Results

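The Toll-like receptor genes Tlr1, Tlr2, Tlr3, Tlr4, Tlr6, Tlr7, Tlr8, Tlr9 and Tlr13, together with Cd14, were followed as 10 genes of 18820 across time courses of mouse macrophages. They are members of the family plus the co-receptor of Tlr4, picked by name with earlier results of these data known. Tlr5, Tlr11 and Tlr12 are outside the 10 and are described further below. Each of the 10 was read from the brightest probe set naming that gene alone. Each had 1 such probe set, and none was dim (below 4.19, the 40th percentile of all log2 values) on any of the 64 arrays. The study measured total RNA of bone marrow derived macrophages from male mice 7 to 8 weeks old, without any stated mutation, grown with CSF1, the growth factor of macrophages. Cells were reseeded on day 6 in 10000 U/ml CSF1 at 200000 cells per well and treated on day 7, and each array holds 1 well. BALB/c cells were collected untreated at 0 h, or 1, 2, 4, 8 and 24 h after 10 U/ml IFN-beta, the same dose of IFN-gamma or lipopolysaccharide (LPS, a cell wall component of Gram-negative bacteria) at 5 ng/ml. C57BL/6 arrays are labelled 0 h without treatment, or those times after LPS at 50, 5 or 0.5 ng/ml. This gives 32 groups of 2 arrays.

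Toll-like receptors are membrane proteins that bind molecules of microbes and start inflammatory and interferon responses. Those at the cell surface sense microbial lipids and lipoproteins: Tlr2 pairs with Tlr1 or Tlr6, and Tlr4 senses LPS with the help of Ly96 and of Cd14, which hands LPS over. Those in endosomes sense nucleic acids, namely double-stranded RNA (Tlr3), single-stranded RNA (Tlr7 and Tlr8), unmethylated CpG DNA (Tlr9) and bacterial ribosomal RNA (Tlr13), and Tlr4 signalling itself leads to secretion of interferon beta by macrophages.

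Promoter windows, each running from 250 bases before to 50 bases after an annotated start, were matched by symbol in RefSeq on build GRCm38.p6. Windows were at hand for 7 of the 10 genes, 9 windows in all, and none was used for Tlr4, Tlr7 or Cd14. The 4 genes shown were picked because Tlr2 had the largest change with LPS in BALB/c, Tlr3 and Tlr9 the largest with the interferons, and Tlr6 holds the interferon motif. Capitals mark every match, on either strand, to 5 motifs: the NF-kB-type motif (GGG and TTCC with 3 bases of any kind between), the core of the interferon-stimulated response element (GAAA and GAAA with 2 bases of any kind between), the gamma-activated site (TTC and GAA with 3 bases of any kind between), the AP-1-type TGANTCA and the PU.1-type core GAGGAA. Letters run 5′ to 3′ along the gene's strand.
Tlr2, chr3:83841559-83841858, minus strand: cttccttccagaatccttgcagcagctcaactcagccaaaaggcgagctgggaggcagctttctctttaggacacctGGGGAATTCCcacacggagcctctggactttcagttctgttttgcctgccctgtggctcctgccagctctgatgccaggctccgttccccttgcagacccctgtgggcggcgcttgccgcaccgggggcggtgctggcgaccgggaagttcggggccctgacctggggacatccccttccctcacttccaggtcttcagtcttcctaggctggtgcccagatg
Tlr3, chr8:45410331-45410630, minus strand: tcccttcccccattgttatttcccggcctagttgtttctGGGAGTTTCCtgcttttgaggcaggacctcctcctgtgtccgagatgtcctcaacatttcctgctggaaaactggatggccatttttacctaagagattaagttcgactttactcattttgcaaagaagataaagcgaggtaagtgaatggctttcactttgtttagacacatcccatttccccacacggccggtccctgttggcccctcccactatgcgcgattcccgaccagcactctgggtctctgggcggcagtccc
Tlr6, chr5:64959117-64959416, minus strand: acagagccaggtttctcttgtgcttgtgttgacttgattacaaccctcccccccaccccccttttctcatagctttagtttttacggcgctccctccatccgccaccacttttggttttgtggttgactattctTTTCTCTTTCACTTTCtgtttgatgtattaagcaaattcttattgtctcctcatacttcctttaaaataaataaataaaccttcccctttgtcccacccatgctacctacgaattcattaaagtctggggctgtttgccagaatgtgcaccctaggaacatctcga
Tlr9, chr9:106222348-106222647, plus strand: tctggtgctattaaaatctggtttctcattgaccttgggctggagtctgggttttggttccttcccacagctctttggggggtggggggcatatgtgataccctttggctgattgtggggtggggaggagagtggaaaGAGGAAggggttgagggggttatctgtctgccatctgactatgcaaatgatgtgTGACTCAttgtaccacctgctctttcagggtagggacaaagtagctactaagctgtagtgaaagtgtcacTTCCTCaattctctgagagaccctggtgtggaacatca
The Tlr2 and Tlr3 windows hold 1 NF-kB-type match each, as does the other Tlr6 window, and 5.56% of all 32851 windows of that length hold one. The Tlr6 window holds 2 overlapping matches to the interferon element core, found in 3.44% of all windows and in none of the other 8 windows used here. The Tlr9 window holds 1 AP-1-type match, as do 7.81% of windows, and 2 matches to the common PU.1-type core (28.3%). Gamma-activated site matches (8.3% of windows) lay in the other Tlr6 window and in 1 window each of Tlr1 and Tlr8. A match describes letters in the window and does not show that a factor binds there.

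All values are log2 of the deposited intensity. Levels are given per array. Differences are between means of 2 arrays on the log2 scale, with the SE of the limma fit after ± and a Benjamini-Hochberg adjusted p over all 18820 genes. A gene is said to rise or fall where the adjusted p over all times of a course was under 0.05 and the change reached 1 log2, which is 2-fold, at 1 or more times. An adjusted p beside a single time tests that time alone. The labels name separate wells but no separate animals, so p-values measure the spread between wells, which may be technical. No untreated wells later than 0 h were analysed here, so each change from 0 h includes time in culture. In bulk RNA, fewer cells that carry a transcript and less transcript per cell cannot be told apart. A level of 1 gene is not set against that of another, because probe sets differ in brightness.

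Several arrays need naming before the results. The C57BL/6 arrays labelled 0 h carried LPS-inducible transcripts at a high level, with a mean of 10.54 for Nos2 and 12.39 for Cxcl10, while 1 h of LPS 5 ng/ml in the same strain gave 4.48 and 10.10. In BALB/c at 0 h these 2 genes were at 3.66 and 6.73. These levels go against the label of untreated cells, and whether the label is right was not tested. C57BL/6 courses are therefore given from the arrays labelled 0 h and, without them, from 1 h. The 1 h groups were not alike either. At 1 h of 50 and 0.5 ng/ml Nos2 was at 7.75 and 6.05, and Cxcl10 at 11.14 and 9.76. Each of these groups holds 1 of the arrays that stood apart, named below, so 1 h is not a clean baseline at those doses. Probe sets that name no gene parted the arrays into a larger set of 53 and a smaller set of 11, with 9 groups divided between them and both 4 h arrays of IFN-beta in the smaller. Another 5 arrays stood apart from their replicate in 10 or more genes, namely IFN-gamma 2 h replicate 1 and 4 h replicate 2 in BALB/c, and LPS 50 ng/ml 1 h replicate 1, LPS 5 ng/ml 24 h replicate 2 and LPS 0.5 ng/ml 1 h replicate 1 in C57BL/6. Macrophage markers were bright throughout, with group means from 11.93 to 13.16 for Adgre1 and from 11.58 to 12.59 for Csf1r, and all 7 lay above 4.19 in most arrays.

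The array set mattered for some members. In the 9 split groups Tlr9 was lower on the array of the smaller set in 9 of 9, with a fitted difference of -0.73 ± 0.06. Tlr2 was also lower there in 9 of 9 groups (-0.24 ± 0.05). Tlr4 (0.29 ± 0.05) and Tlr13 (0.19 ± 0.03) were higher there in 9 of 9. Tlr3, Tlr6, Tlr7 and Tlr8 were higher there as fitted, by 0.21 ± 0.05, 0.25 ± 0.06, 0.21 ± 0.04 and 0.19 ± 0.05. They were lower there in 1, 2, 1 and 2 of the 9 groups. Values with the set as a covariate or from the larger set alone are given beside some of the results they move.

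**Figure D1:**
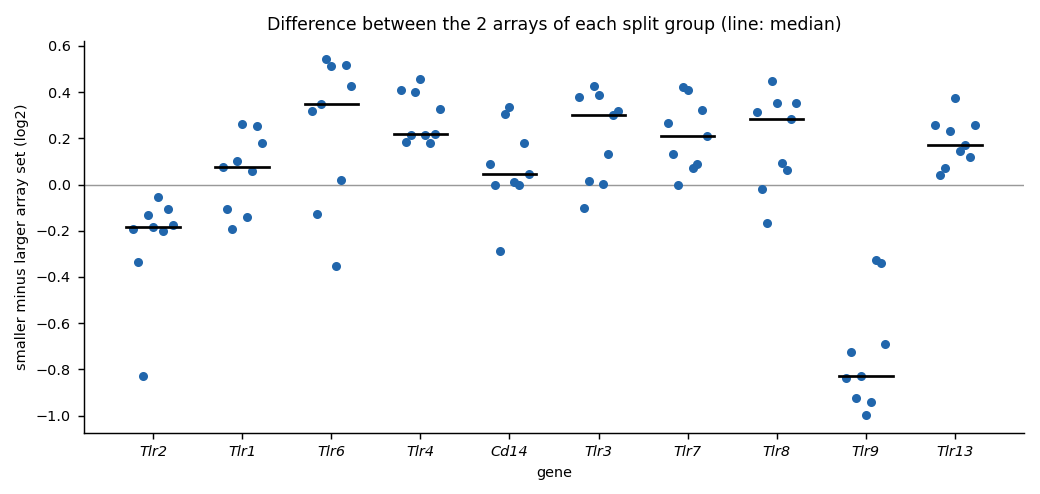
Log2 level on the array of the smaller set minus that on the array of the larger set, for each gene in the 9 groups that hold 1 array of each. Points are groups and the line is their median, which is -0.83 for Tlr9 and 0.22 for Tlr4.

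In BALB/c cells, LPS raised surface and endosomal receptors. Tlr2 rose first and furthest (2.65 at 8 h), Tlr1, Tlr3, Tlr9 and Tlr6 followed later, and Cd14 rose by about the minimum change, while Tlr4, the LPS receptor itself, fell for a time. Of the 10 genes 9 were called against 0 h, 7 higher and 2 lower, where 17.2% of all genes were called, 7.44% higher and 9.72% lower. From 1 h, 5 of 10 were called, Tlr1, Tlr3, Tlr6 and Tlr9 higher and Tlr13 lower, where 15% of all genes were called, 6.03% higher and 8.97% lower. With the array set as a covariate 7 were called from 1 h, Tlr7 and Tlr8 being higher as well (both 1.04), as they were in the larger set alone (1.14 and 1.16). The median of the 10 genes' changes from 0 h came to 0.22, 0.99 and 1.41 at 1, 4 and 8 h, beside -0.05, -0.07 and -0.04 over all genes.

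Tlr2, the shared partner of the lipoprotein receptors, stood at 8.92 and 8.99 at 0 h and at 11.04 and 10.91 after 1 h of LPS. It was at 11.26 and 11.17 at 2 h, 11.55 and 11.66 at 4 h, 11.57 and 11.65 at 8 h, and 11.43 and 11.25 at 24 h. Every LPS array of BALB/c thus lay above both untreated arrays from the first time on. The rise was 2.01 ± 0.14 at 1 h (4.04-fold, adjusted p = 1.6e-14) and 2.65 ± 0.14 at 8 h (6.28-fold, adjusted p = 6.3e-19). Counted from 1 h, the further change was 0.64 ± 0.14 at 8 h, under the minimum.

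Tlr1, which with Tlr2 binds triacylated lipoproteins, moved later. It stood at 8.79 and 8.63 at 0 h, 9.09 and 9.20 at 1 h, 9.46 on both arrays at 2 h, 10.42 and 10.44 at 4 h, 11.07 and 11.01 at 8 h, and 10.91 and 11.17 at 24 h. The 0 h and 1 h arrays did not overlap, and each later time up to 8 h lay above the one before it. At 1 h the difference of 0.44 ± 0.15 missed the threshold (adjusted p = 0.082), and at 8 h it was 2.33 ± 0.15 (5.04-fold, adjusted p = 2.4e-16).

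Tlr6, the partner for diacylated lipoproteins, was at 7.84 and 7.76 at 0 h, 8.14 on both arrays at 2 h, 9.07 and 9.05 at 4 h, and 9.44 and 9.39 at 8 h. Its arrays at 1 h were 7.79 and 8.33 and overlapped the untreated ones. The rise reached 1.26 ± 0.16 at 4 h (adjusted p = 3.2e-08) and 1.61 ± 0.16 at 8 h (3.05-fold, adjusted p = 3.9e-11). At 24 h its arrays were 8.74 and 9.25.

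Cd14, the anchored protein that passes LPS to the Tlr4 complex, was bright before treatment, at 11.44 and 11.37. After LPS it was at 12.05 and 12.36 at 1 h, 12.04 and 12.18 at 2 h, 12.14 and 12.12 at 4 h, 12.33 and 12.24 at 8 h, and 12.24 and 12.58 at 24 h. All 10 LPS arrays lay above both untreated ones, with little further change after 1 h. The difference was 0.80 ± 0.11 at 1 h (adjusted p = 7.6e-07) and 1.01 ± 0.11 at 24 h (adjusted p = 4.6e-10). The call hangs on the minimum change, since the 24 h difference was 0.97 without replicate 2 of 0 h and 0.84 without replicate 2 of 24 h, and the gene was not called in either case. It was not called with the array set as a covariate (0.97 at 24 h) or in the larger set alone either (0.84 at 24 h and 0.89 at 8 h).

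Tlr4 moved down and then back. It was at 9.11 and 9.02 at 0 h, 8.38 and 8.42 at 2 h, 7.84 and 8.10 at 4 h, 8.09 and 8.22 at 8 h, and 8.65 and 9.11 at 24 h. The 2, 4 and 8 h arrays lay below both untreated arrays, and those of 24 h overlapped them. The fall was -1.10 ± 0.15 at 4 h (2.14-fold, adjusted p = 1.5e-07). It was -0.96 without replicate 1 of LPS at 4 h, under the minimum, and at 24 h the difference was -0.18 ± 0.15 (adjusted p = 0.41). With the array set as a covariate the 4 h value was -1.10 ± 0.10 and the 24 h value -0.33 ± 0.11 (adjusted p = 0.015).

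**Figure D2:**
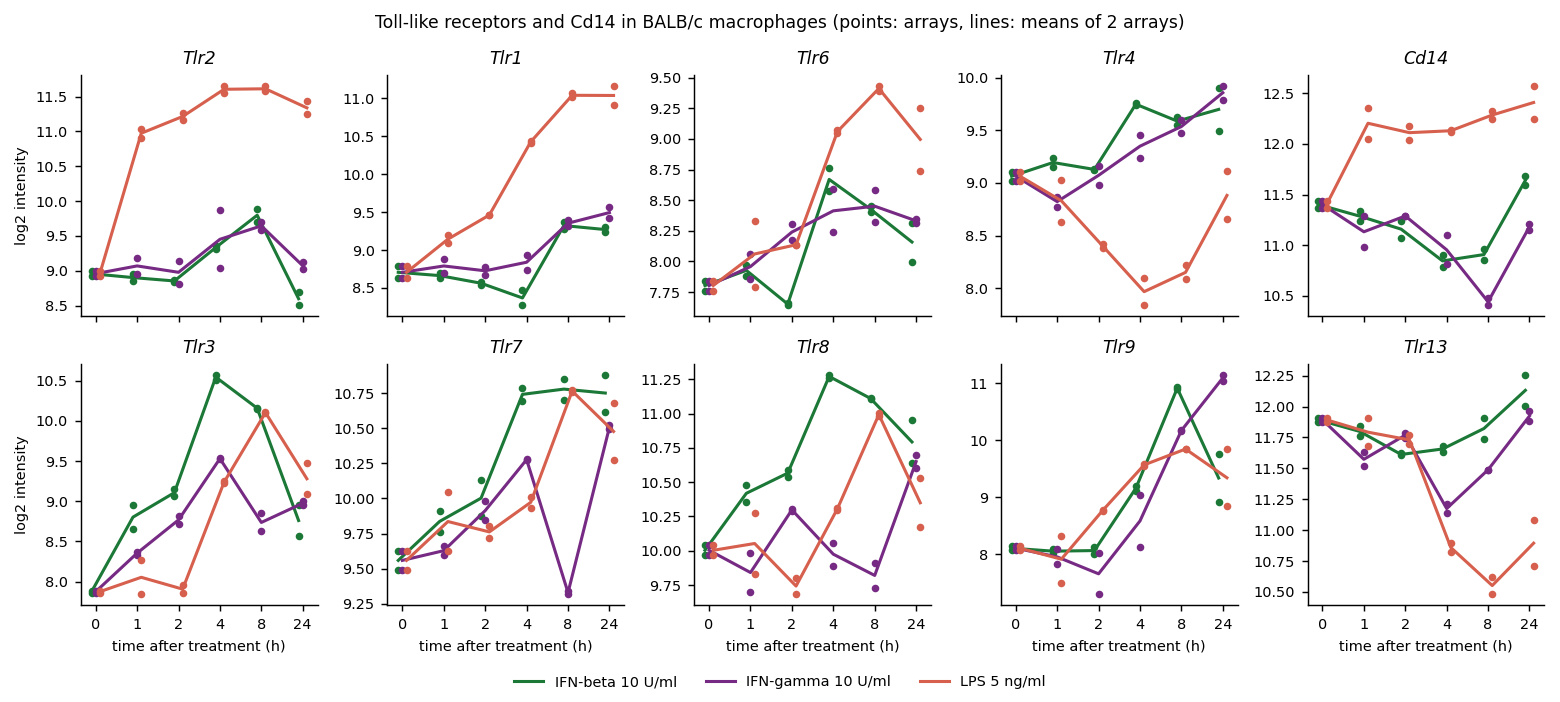
Log2 intensity of the 10 genes in BALB/c cells against time after treatment, which is spaced by step and not to scale, with IFN-beta, IFN-gamma and LPS in separate colours. Points are arrays and lines join means of 2 arrays. Tlr2 reaches 11.57 and 11.65 at 8 h of LPS, above every interferon array, and each panel has its own vertical range.

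Among the endosomal receptors LPS raised Tlr3, Tlr7 and Tlr9 late and lowered Tlr13. Tlr3, the receptor of double-stranded RNA, was at 7.89 and 7.86 at 0 h and at 7.95 and 7.86 after 2 h of LPS. It then reached 9.25 and 9.23 at 4 h, 10.10 and 10.11 at 8 h, and 9.09 and 9.47 at 24 h. The arrays of 1 and 2 h lay close to or overlapped the untreated ones, and those from 4 h on lay above them. The rise was 1.36 ± 0.14 at 4 h and 2.23 ± 0.14 at 8 h (adjusted p = 1.4e-16).

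Tlr9 was at 8.14 and 8.07 at 0 h, 8.78 and 8.75 at 2 h, 9.55 and 9.58 at 4 h and 9.85 and 9.84 at 8 h of LPS. At 1 h its arrays were 8.32 and 7.50 and at 24 h 9.84 and 8.84, and in both groups the lower value came from the smaller array set. The rise at 8 h was 1.74 ± 0.28 (adjusted p = 2.5e-06). At 24 h it was 1.24 ± 0.28, or 1.60 ± 0.12 with the set as a covariate and 1.73 ± 0.12 in the larger set alone.

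Tlr7, at 9.63 and 9.49 before treatment, rose to 10.76 and 10.77 at 8 h of LPS (1.21 ± 0.12, adjusted p = 6.1e-11). Tlr8 moved with a similar shape, from 10.04 and 9.97 to 10.98 and 11.00 at 8 h, but its difference of 0.99 ± 0.13 lay just under the minimum (1.00, and called, after centring each array). Tlr13, a receptor that human cells lack, stood at 11.91 and 11.88 at 0 h, 10.89 and 10.83 at 4 h, 10.48 and 10.62 at 8 h, and 10.71 and 11.08 at 24 h. All 6 arrays from 4 h on lay below both untreated ones, and the fall at 8 h was -1.34 ± 0.10 (2.53-fold, adjusted p = 4.8e-14).

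Given alone, IFN-beta raised endosomal receptors and no surface receptor by the minimum change. Tlr3, Tlr7, Tlr8 and Tlr9 were called against 0 h, all higher, which is 4 of 10 where 7.92% of all genes were called, 4.05% higher. Tlr3 was at 8.66 and 8.95 at 1 h, 9.15 and 9.06 at 2 h, 10.51 and 10.58 at 4 h, 10.15 and 10.16 at 8 h, and 8.57 and 8.95 at 24 h. All 10 treated arrays lay above the untreated ones, with a peak at 4 h of 2.67 ± 0.14 (6.36-fold, adjusted p = 4.4e-18). Both 4 h arrays lay in the smaller set, where Tlr3 was 0.21 ± 0.05 higher.

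Tlr7 after IFN-beta was at 10.70 and 10.79 at 4 h, 10.85 and 10.70 at 8 h, and 10.62 and 10.88 at 24 h, so it stayed up through the last time. Its differences were 1.18, 1.22 and 1.19, each ± 0.12. Both 4 h arrays lay in the smaller set, where Tlr7 was 0.21 ± 0.04 higher. Tlr8 had its highest mean at 4 h, with arrays at 11.28 and 11.26 (1.27 ± 0.13, adjusted p = 5.3e-10). It was at 10.64 and 10.95 at 24 h (0.79 ± 0.13). In the smaller set, which holds both 4 h arrays, Tlr8 was 0.19 ± 0.05 higher. The 8 h mean was 11.11, so the order of 4 h and 8 h is not settled.

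Tlr9 after IFN-beta changed later than Tlr3. Its arrays were 8.02 and 8.08 at 1 h, 8.00 and 8.12 at 2 h, 9.20 and 9.11 at 4 h, 10.90 and 10.92 at 8 h, and 9.75 and 8.92 at 24 h. The arrays of 1 and 2 h overlapped the untreated ones, and every array from 4 h on lay above them. The rise at 8 h was 2.81 ± 0.28 (7.01-fold, adjusted p = 3.6e-10). Both 4 h arrays belonged to the smaller set, and the difference there was 1.05 ± 0.28 as fitted and 1.79 ± 0.13 with the set as a covariate. At 24 h it was 1.23 ± 0.28 as fitted and 1.65 ± 0.12 in the larger set.

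The surface receptors and Cd14 stayed within 1 log2 of their 0 h level under IFN-beta. Tlr2 was 0.84 ± 0.14 higher at 8 h (adjusted p = 8e-06), Tlr6 0.87 ± 0.16 higher at 4 h (adjusted p = 4e-05) and Tlr4 0.68 ± 0.15 higher at 4 h (adjusted p = 0.00043). For Tlr4 that 4 h value was 0.39 ± 0.12 with the array set as a covariate. Tlr6 was 0.25 ± 0.06 higher on the smaller set, which holds both 4 h arrays. Cd14 was at 10.90 and 10.79 at 4 h, below both untreated arrays (-0.56 ± 0.11, adjusted p = 0.00011). At 24 h it was at 11.60 and 11.68.

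IFN-gamma raised Tlr3 and Tlr9, 2 of 10 genes, where 5.37% of all genes were called, 3.1% higher. Tlr9 was at 7.82 and 8.08 at 1 h, 8.02 and 7.29 at 2 h, 8.12 and 9.04 at 4 h, 10.17 on both arrays at 8 h, and 11.03 and 11.15 at 24 h. The 24 h arrays were the highest of all 64 for this gene, and the rise there was 2.99 ± 0.28 (7.93-fold, adjusted p = 1e-10). At 2 h and 4 h the lower arrays were those of the smaller set and the higher ones were arrays that stood apart. The 4 h difference was 0.48 ± 0.28 as fitted (adjusted p = 0.33), 0.84 ± 0.12 with the set as a covariate (adjusted p = 1.6e-06) and 0.02 ± 0.29 without the arrays that stood apart (adjusted p = 0.98).

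Tlr3 under IFN-gamma was at 8.34 and 8.37 at 1 h, 8.82 and 8.72 at 2 h, 9.54 and 9.52 at 4 h, and 8.85 and 8.63 at 8 h, with a mean of 8.98 ± 0.04 (SD, n = 2) at 24 h. All treated arrays lay above the untreated ones, and the peak at 4 h was 1.66 ± 0.14 (adjusted p = 4.7e-12). Tlr7 had an uneven course: 10.28 on both arrays at 4 h, 9.34 and 9.32 at 8 h, below both untreated arrays, and 10.52 and 10.49 at 24 h. Its differences were 0.72, -0.23 and 0.95, each ± 0.12, and the call was missed by the minimum change alone (adjusted p = 4.3e-10 over all times). After centring each array the 24 h difference was 1.03 and was called.

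Cd14 under IFN-gamma was at 10.47 and 10.40 at 8 h, its lowest group of all 32, with a difference of -0.96 ± 0.11 (adjusted p = 9e-09) that did not reach 1 log2. By 24 h it was at 11.15 and 11.21. Tlr13 was at 11.21 and 11.14 at 4 h (-0.72 ± 0.10, adjusted p = 1.3e-06) and back at 11.96 and 11.89 at 24 h. Tlr4 was at 9.92 and 9.79 at 24 h, above both untreated arrays (0.79 ± 0.15, adjusted p = 9.8e-05).

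**Figure D3:**
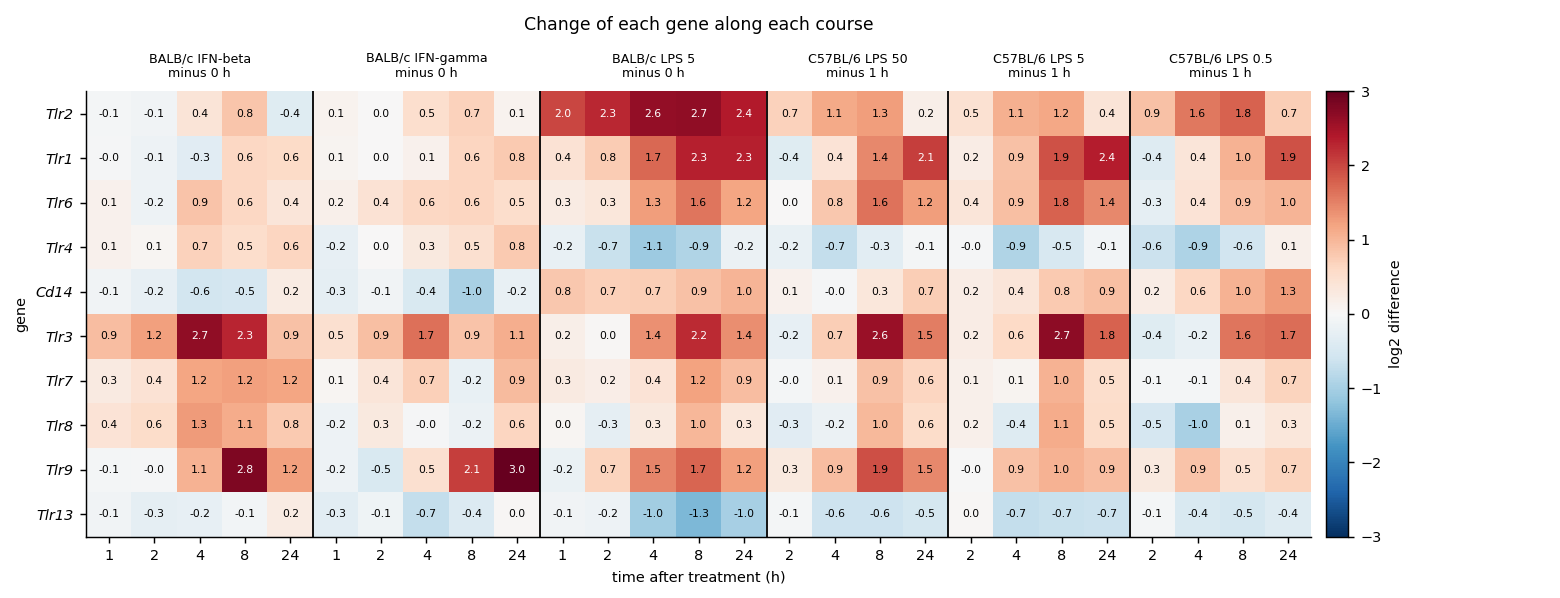
Log2 difference of each gene at each time, from 0 h in the BALB/c courses and from 1 h in the C57BL/6 courses, where rows are genes, columns are times and red is higher. The BALB/c LPS block is darkest for Tlr2 (2.65 at 8 h), and the interferon blocks for Tlr9 (2.99 at 24 h of IFN-gamma).

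The 3 BALB/c treatments were compared with each other at matching times, which needs no 0 h array. IFN-beta and IFN-gamma differed in 4 of the 10 genes, where 3.96% of all genes did, 2.06% higher and 1.9% lower with IFN-beta. At 8 h Tlr3 was higher with IFN-beta by 1.42 ± 0.14 (adjusted p = 7.1e-10), Tlr7 was 1.45 ± 0.12 higher at 8 h and Tlr8 1.30 ± 0.13 higher at 4 h. Tlr9 was lower with IFN-beta at 24 h, by -1.76 ± 0.28 (adjusted p = 1.6e-05) as fitted and -1.39 ± 0.12 with the array set as a covariate.

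IFN-beta and LPS differed in 7 of 10 genes, where 14.3% of all genes did, 8.06% higher and 6.19% lower with IFN-beta. Tlr1, Tlr2 and Cd14 were lower with IFN-beta, by -2.06 ± 0.15 at 4 h, -2.74 ± 0.14 at 24 h and -1.38 ± 0.11 at 8 h. Tlr4 was 1.78 ± 0.15 higher with IFN-beta at 4 h (1.49 ± 0.12 with the array set as a covariate), Tlr13 1.27 ± 0.10 higher at 8 h, Tlr3 1.31 ± 0.14 higher at 4 h and Tlr9 1.07 ± 0.28 higher at 8 h. The 4 h value of Tlr3 rests on IFN-beta arrays that both lay in the smaller set, where Tlr3 was 0.21 ± 0.05 higher. At 8 h Tlr3 was at 10.15 and 10.16 with IFN-beta and at 10.10 and 10.11 with LPS, a difference of 0.05 ± 0.14.

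IFN-gamma and LPS differed in 9 of 10 genes, all but Tlr6, where 13.6% of all genes did, 7.51% higher and 6.09% lower with IFN-gamma. Tlr2 was lower with IFN-gamma by -2.26 ± 0.14 at 24 h, Cd14 by -1.85 ± 0.11 at 8 h and Tlr1 by -1.69 ± 0.15 at 8 h. Tlr7, Tlr8 and Tlr3 were lower as well, each at 8 h (-1.44 ± 0.12, -1.17 ± 0.13 and -1.37 ± 0.14). Tlr4 (1.38 ± 0.15 at 8 h), Tlr13 (1.03 ± 0.10 at 24 h) and Tlr9 (1.75 ± 0.28 at 24 h) were higher with IFN-gamma. The Tlr13 call was lost without replicate 1 of IFN-gamma at 24 h (0.99) or without replicate 1 of LPS at 24 h (0.84).

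In C57BL/6 cells, LPS at each dose raised Tlr1, Tlr2, Tlr3 and Tlr6, counted from 1 h. From 1 h, 5 of 10 genes were called at 50 ng/ml, all higher, where 14.6% of all genes were, 5.95% higher. At 5 ng/ml 7 were called, all higher, where 14.9% were, 6.29% higher, and at 0.5 ng/ml 5, all higher, where 10.4% were, 4.35% higher. From 0 h, 6 were called at 50 ng/ml, all higher (15% of all genes, 6.26% higher), and 5 at 5 ng/ml, all higher (14.3%, 5.88% higher). At 0.5 ng/ml 4 were called higher and 2 lower, where 9.11% of all genes were, 4.02% higher and 5.09% lower. Without replicate 1 of 1 h, the array that stood apart, 8 genes were called at 0.5 ng/ml from 1 h, with Tlr9 higher and Tlr4 and Tlr8 lower besides. At 5 ng/ml from 1 h, centring each array left Tlr7 (0.91), Tlr8 (0.98) and Tlr9 (0.90) uncalled and called Tlr4 lower (-1.01), and quantile normalisation left Tlr7 (0.95) and Tlr9 (0.997) uncalled. At 50 ng/ml from 1 h, Tlr8 (1.02 at 8 h) was called as well without the arrays that stood apart. The courses share the 0 h arrays, so their calls from 0 h are not independent of each other.

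Tlr2 was at 10.15 and 10.11 in the C57BL/6 arrays of 0 h. At 1 h it was at 10.49 and 10.50 with 50 ng/ml, 10.69 and 10.65 with 5 ng/ml, and 9.94 and 9.89 with 0.5 ng/ml. At 8 h the doses gave 11.80 and 11.71, 11.82 and 11.84, and 11.66 and 11.71. The lowest dose lay below both others and below the 0 h arrays at 1 h, and came up with the others by 8 h. From 1 h to 8 h Tlr2 rose by 1.26 ± 0.14, 1.16 ± 0.14 and 1.77 ± 0.14.

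Tlr1 at 24 h was at 11.11 and 11.05 with 50 ng/ml, 10.97 and 10.90 with 5 ng/ml, and 10.88 and 10.94 with 0.5 ng/ml. From 1 h the rises were 2.08, 2.36 and 1.91, each ± 0.15, and from 0 h 2.13, 1.99 and 1.96. At 1 h of 50 ng/ml its arrays were 9.45 and 8.56, the first being one that stood apart. Tlr6 at 8 h was at 8.98 and 8.92 with 50 ng/ml, at a mean of 8.98 ± 0.03 (SD, n = 2) with 5 ng/ml, and at 8.51 and 8.54 with 0.5 ng/ml, and its rises from 1 h were 1.64, 1.77 and 0.93, each ± 0.16. For the lowest dose the largest rise of Tlr6 was 1.01 ± 0.16 at 24 h, and it lay at 0.82 in the larger array set alone, 0.83 without replicate 2 of 1 h and just under 1 without replicate 2 of 24 h.

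Cd14 in C57BL/6 cells was at 10.52 and 10.51 at 0 h, lower than in any LPS group of that strain. At 1 h it was at 11.48 and 11.24, 11.24 and 11.14, and 10.74 and 10.76 from the highest to the lowest dose, and at 24 h at 12.08 and 12.11, 12.11 and 12.09, and 12.03 on both arrays. At 1 h the lowest dose lay below both others, while 50 and 5 ng/ml nearly met. The higher array of 50 ng/ml at 1 h (11.48) was the one that stood apart. At 24 h all doses were close together. From 0 h the rise at 24 h was 1.58, 1.58 and 1.51, each ± 0.11, and from 1 h it was 0.73, 0.91 and 1.28, so that the lowest dose alone reached the minimum from 1 h.

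Tlr4 in C57BL/6 cells lay lowest at 4 h as well, without reaching a difference of 1 log2 in any dose as fitted. At 4 h it was at 7.59 and 7.81, 7.55 and 7.33, and 7.83 and 7.78, against 8.28 and 8.42 at 0 h. All 6 arrays of 4 h lay below both 0 h arrays, with differences of -0.64, -0.91 and -0.54 ± 0.15 (adjusted p = 0.0013, 9.4e-06 and 0.014). From 1 h the 4 h values were -0.70, -0.90 and -0.93, and the last became -1.04 ± 0.17 without the arrays that stood apart. That leaves 1 array at 1 h, which lay in the smaller set, where Tlr4 was higher. Without that array instead, the value was -0.83. By 24 h it was at 8.29 and 8.40, 8.05 and 8.47, and 8.80 and 8.98.

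Tlr3 in C57BL/6 cells was at 8.36 and 8.20 at 0 h, above both arrays of the 1 h groups of all doses. At 1 h it was at 7.83 and 7.47, 7.32 and 7.10, and 7.52 on both arrays, at 4 h at 8.24 and 8.54, 7.90 and 7.73, and 7.30 and 7.27, and at 8 h at 10.15 and 10.31, 9.91 and 9.85, and a mean of 9.12 ± 0.17 (SD, n = 2). From 1 h it rose at 8 h by 2.58, 2.67 and 1.60, each ± 0.14. Counted from 0 h the first hours were lower, by -1.07 ± 0.14 at 1 h of 5 ng/ml, and with 0.5 ng/ml the largest change from 0 h was a fall of -1.12 ± 0.14 at 2 h. The same 0.5 ng/ml course was thus called lower from 0 h and higher from 1 h.

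Tlr9 in C57BL/6 cells was at 9.19 and 9.08 at 0 h. At 8 h it was at 10.69 and 10.52 with 50 ng/ml, 9.66 on both arrays with 5 ng/ml, and 8.92 and 9.03 with 0.5 ng/ml, so that the doses did not overlap and the lowest lay under the 0 h arrays. From 1 h the 8 h differences were 1.94 and 1.04 for the higher doses (adjusted p = 3.8e-07 and 0.0032), and 0.49 for 0.5 ng/ml (adjusted p = 0.22), each ± 0.28. That of 5 ng/ml was 0.94 without replicate 2 of 1 h. At 0.5 ng/ml the 1 h arrays were 8.96 and 8.02, the first of which stood apart while the other lay in the smaller set. Without the first, the 4 h difference from 1 h was 1.33 ± 0.29 (adjusted p = 0.0016), and in the larger set alone it was 0.39 ± 0.12.

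Tlr7 at 8 h was at 10.76 and 10.81, 10.79 and 10.89, and 10.08 and 10.24 from the highest to the lowest dose, with differences from 1 h of 0.88, 1.04 and 0.37 ± 0.12, the second of which was 0.99 without replicate 2 of 8 h. Tlr8 lay low before it came up. At 4 h it was at 9.60 and 9.88, 9.44 and 9.15, and 9.14 and 9.09, against 10.22 and 10.15 at 0 h, and at 8 h at 10.89 on both arrays, 10.88 and 10.68, and 10.22 and 10.25. All 6 arrays of 4 h lay under the 0 h arrays, and the fall from 0 h reached the minimum at 0.5 ng/ml (-1.07 ± 0.13, adjusted p = 1.3e-07). Tlr13 was lower at 4 h in each dose, by -0.57, -0.65 and -0.32 ± 0.10 from 0 h, without reaching 1 log2.

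**Figure D4:**
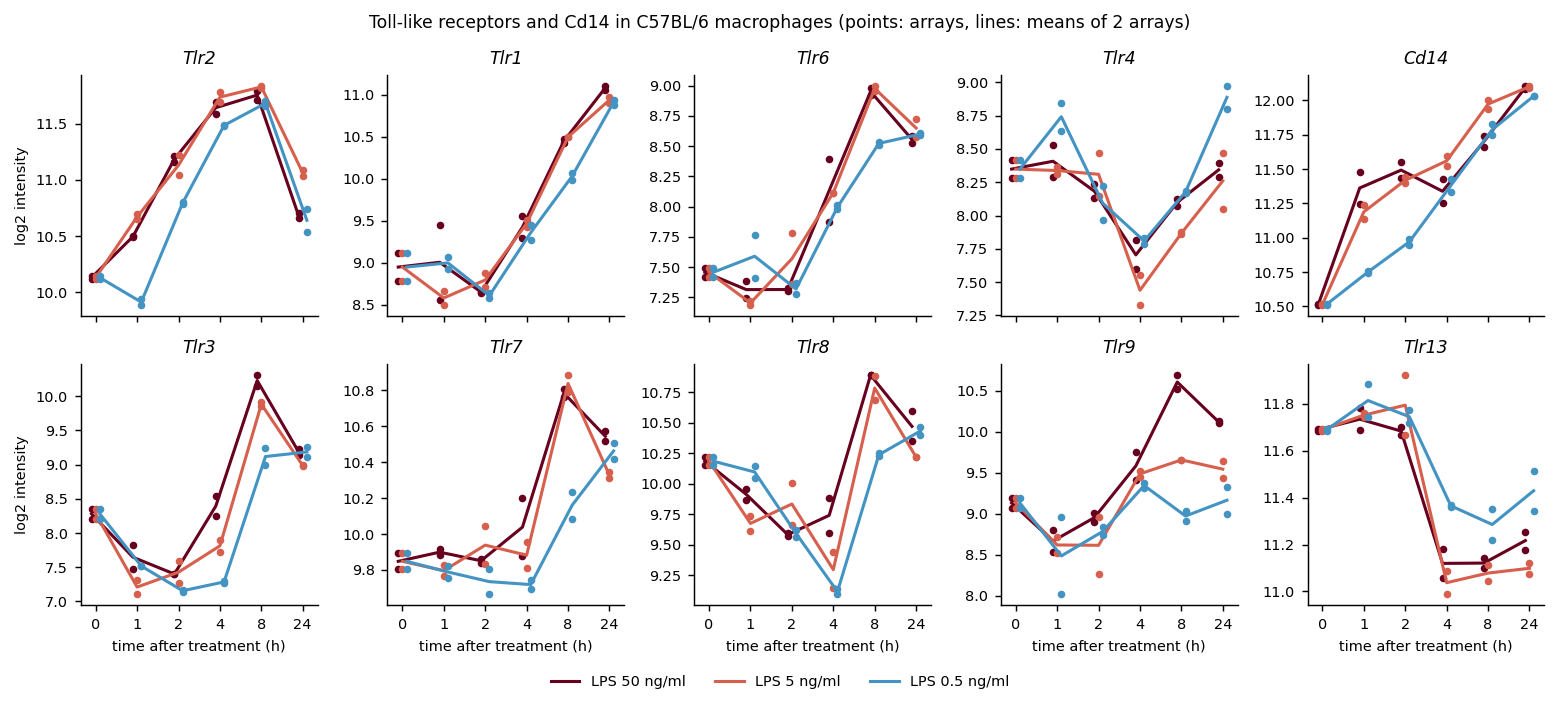
Log2 intensity of the 10 genes in C57BL/6 cells against time after LPS at 50, 5 or 0.5 ng/ml, with time spaced by step. Points are arrays, lines join means of 2 arrays, and the 0 h arrays are shared by all 3 doses. For Tlr9 at 8 h the doses lie apart, from 10.69 and 10.52 at 50 ng/ml to 8.92 and 9.03 at 0.5 ng/ml.

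Doses were compared at matching times. Between 50 and 0.5 ng/ml, 2 of 10 genes differed, Tlr3 and Tlr9, both higher at the higher dose, where 3.72% of all genes were called, 2.01% higher. Tlr3 was 1.11 ± 0.14 higher at 4 h and at 8 h (adjusted p = 3.9e-07 and 1e-07), and at 24 h the difference was 0.00 ± 0.14. Tlr9 was 1.63 ± 0.28 higher at 8 h (adjusted p = 3.2e-05), a value unchanged with the array set as a covariate because no 8 h array lay in the smaller set. Cd14 (0.61 ± 0.11) and Tlr2 (0.58 ± 0.14) were higher with 50 ng/ml at 1 h (adjusted p = 0.00046 and 0.0091), under the minimum change.

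Between 5 and 0.5 ng/ml none of the 10 reached the rule by limma (2.16% of all genes), though 8 of them had an adjusted p under 0.05 over all times, led by Tlr3 at 8 h (0.77 ± 0.14) and Tlr2 at 1 h (0.76 ± 0.14). Between 50 and 5 ng/ml none reached it either (0.228% of all genes), and 1, Tlr3, had an adjusted p under 0.05 (0.58 ± 0.14 at 4 h, adjusted p = 0.015 over all times). The percentages are for the rule with the minimum change, and the shares of all genes by adjusted p alone are not given. The 95% intervals of the differences between 50 and 5 ng/ml ran from -0.66 for Tlr2 at 24 h to 1.52 for Tlr9 at 8 h (0.95 ± 0.28). For Tlr9 a difference above 1 log2 thus remains within the interval. With the array set as a covariate that Tlr9 difference was 0.95 ± 0.12 (adjusted p = 6.7e-06).

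The strains were compared where both had the same label, 0 h or LPS at 5 ng/ml, with the label of the C57BL/6 arrays at 0 h in doubt as described above. Neither strain has a second preparation in the labels, and strain cannot be told apart from preparation. At 0 h Tlr2 was lower in BALB/c, at 8.92 and 8.99 against 10.15 and 10.11 (-1.17 ± 0.14, adjusted p = 2.5e-08), and so was Tlr9, at 8.14 and 8.07 against 9.19 and 9.08 (-1.03 ± 0.28, adjusted p = 0.012). These were 2 of 10 genes, both lower, where 2.36% of all genes were called, 1.26% lower. The Tlr9 call was lost without any 1 of the 4 arrays (adjusted p from 0.052 to 0.11). LPS raised both genes in BALB/c, and the C57BL/6 arrays of this contrast are those with Nos2 at 10.54, whose part in the difference was not tested. Cd14 (0.89 ± 0.11, adjusted p = 7.2e-08) and Tlr4 (0.72 ± 0.15, adjusted p = 0.00058) were higher in BALB/c by less than 1 log2.

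Under LPS at 5 ng/ml, a comparison without 0 h arrays, 3 of 10 genes were called, all higher in BALB/c, where 5.53% of all genes were called, 3.52% higher. Tlr3 at 4 h was at 9.25 and 9.23 in BALB/c and 7.90 and 7.73 in C57BL/6 (1.42 ± 0.14, adjusted p = 3.2e-10), and at 8 h the difference was 0.22 ± 0.14. Tlr8 at 4 h was at 10.31 and 10.30 against 9.44 and 9.15 (1.01 ± 0.13, adjusted p = 2.3e-07), and the difference was 0.86 without replicate 2 of C57BL/6. Cd14 at 1 h was at 12.05 and 12.36 against 11.24 and 11.14 (1.02 ± 0.11, adjusted p = 3.6e-09), but 0.98 with the array set as a covariate and 0.86 in the larger set. Tlr1 (0.96 ± 0.15) and Tlr6 (0.94 ± 0.16) were higher in BALB/c at 4 h as well, just under the minimum. Quantile normalisation left 1 of the 3 calls, Tlr3.

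Markers of other cells also differed between the strains. Of 7 granulocyte genes 1 was called at 0 h, Ngp, lower in BALB/c by -1.74 ± 0.28, and 3 under LPS, Ngp (-2.49 ± 0.28 at 2 h), S100a9 (-1.23 ± 0.19 at 1 h) and Mpo (-1.10 ± 0.20 at 1 h), all lower. The B cell gene Cd79b was lower in BALB/c at 0 h (-1.40 ± 0.17) and under LPS (-1.46 ± 0.17 at 1 h), and the dendritic gene Flt3 under LPS (-1.03 ± 0.25 at 24 h). Of the stromal genes Pdgfrb was higher in BALB/c at 0 h (1.06 ± 0.22) and under LPS (2.45 ± 0.22 at 4 h), and Dcn under LPS (1.78 ± 0.24 at 24 h). In C57BL/6 Ngp fell with every dose from 1 h, by -2.22, -2.08 and -1.67 ± 0.28 at 24 h. The log2 of the summed markers was 7.35 at 0 h in BALB/c and 8.12 in C57BL/6 for 7 granulocyte genes, and 14.87 and 14.95 for 7 macrophage genes. The part of such cells in the strain differences was not tested.

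The size of the LPS response was compared between strains as a difference of changes. From 0 h 4 of 10 genes differed, each with a change further upward in BALB/c, where 4.68% of all genes were called, 3.27% in that direction. They were Tlr3 (1.83 ± 0.20 at 4 h), Tlr2 (1.47 ± 0.19 at 1 h), Tlr1 (1.20 ± 0.21 at 4 h) and Tlr8 (1.19 ± 0.19 at 4 h). From 1 h, without the 0 h arrays, none of the 10 reached the rule by limma (3.77% of all genes). An adjusted p under 0.05 over all times was reached by 5, and the share of all genes by that p alone is not given. Among these 5 members Tlr3 stood at -0.62 ± 0.20 at 8 h and Cd14 at -0.71 ± 0.15 at 24 h, lower in BALB/c, while Tlr8 stood at 0.63 ± 0.19 at 4 h. For Tlr2 the value at 8 h went from 0.95 ± 0.19 counted from 0 h to -0.52 ± 0.19 counted from 1 h (adjusted p = 0.11).

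**Figure D5:**
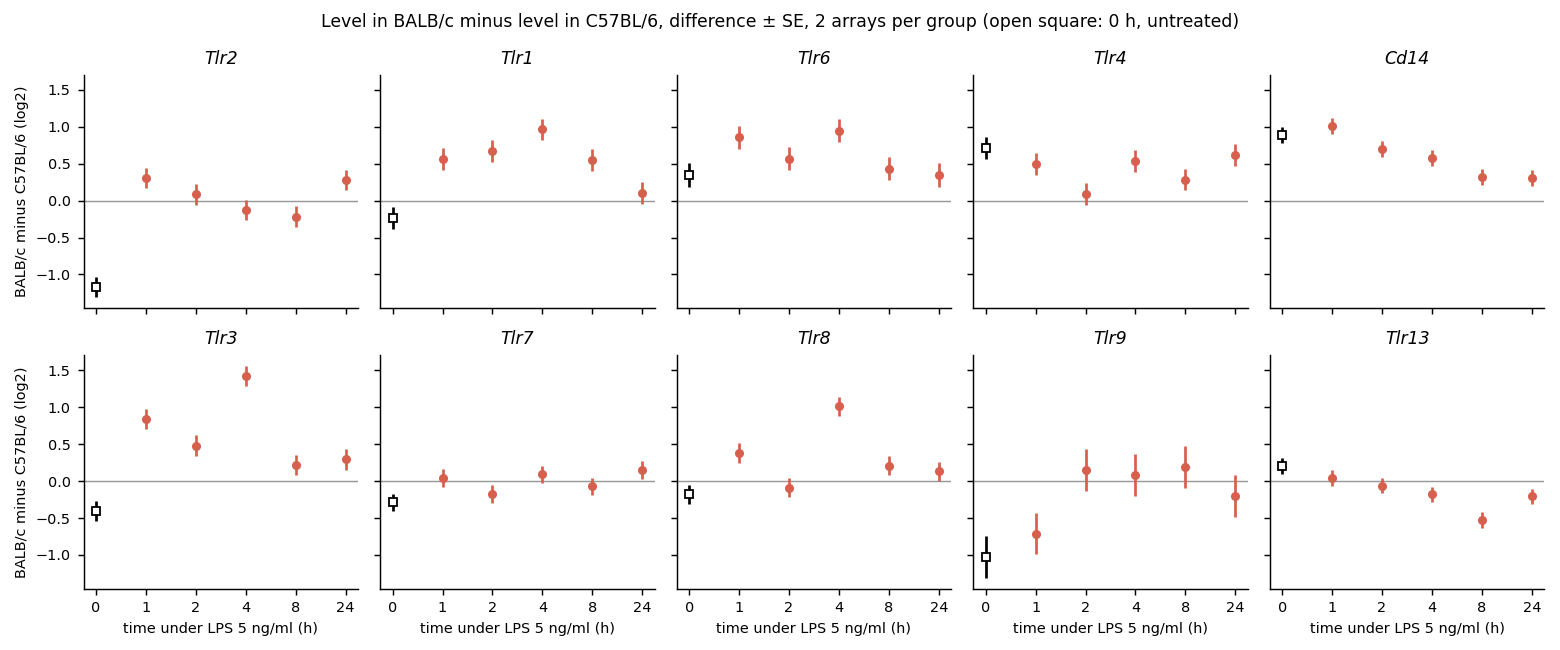
Log2 level in BALB/c minus that in C57BL/6 at 0 h (open squares) and under LPS at 5 ng/ml (filled points), with bars of 1 SE and 2 arrays per group. Tlr2 lies at -1.17 at 0 h and between -0.22 and 0.30 from 1 h on, and Tlr3 and Tlr8 lie highest at 4 h (1.42 and 1.01).

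Across all 32 groups each gene had its own order of levels. Tlr2 was highest at 8 h of LPS 5 ng/ml in C57BL/6 (11.83 ± 0.02, SD, n = 2) and lowest at 24 h of IFN-beta (8.60 ± 0.14). Tlr3 and Tlr8 were highest at 4 h of IFN-beta (10.55 ± 0.05 and 11.27 ± 0.02) and lowest at 2 h and 4 h of LPS 0.5 ng/ml in C57BL/6 (7.16 ± 0.02 and 9.11 ± 0.03). Both 4 h arrays of IFN-beta lay in the smaller array set. The rank of Tlr8 there above 8 h of IFN-beta (11.11 ± 0.01) is therefore not settled. Tlr4 was highest at 24 h of IFN-gamma (9.86 ± 0.10) and lowest at 4 h of LPS 5 ng/ml in C57BL/6 (7.44 ± 0.16). Most neighbours in these orders overlapped: of 31 neighbouring pairs of groups per gene, between 6 (Tlr7 and Tlr13) and 10 (Tlr2) were parted with both arrays of one above both of the next.

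The remaining genes gave their own extremes. Tlr1 was highest at 24 h of LPS 50 ng/ml (11.08 ± 0.04) and lowest at 4 h of IFN-beta (8.37 ± 0.14), and Tlr6 ran from 9.41 ± 0.03 at 8 h of LPS in BALB/c to 7.20 ± 0.02 at 1 h of LPS 5 ng/ml in C57BL/6. Tlr7 was highest at 8 h of LPS 5 ng/ml in C57BL/6 (10.84 ± 0.07) and lowest at 8 h of IFN-gamma (9.33 ± 0.02). Tlr9 ran from 11.09 ± 0.09 at 24 h to 7.65 ± 0.51 at 2 h of IFN-gamma, and Tlr13 from 12.13 ± 0.18 at 24 h of IFN-beta to 10.55 ± 0.10 at 8 h of LPS in BALB/c. The lower Tlr9 array at 2 h of IFN-gamma lay in the smaller array set, where Tlr9 was lower (-0.73 ± 0.06). Which group is lowest for Tlr9 is therefore not settled. Cd14 was highest at 24 h of LPS in BALB/c (12.41 ± 0.24) and lowest at 8 h of IFN-gamma (10.44 ± 0.05).

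The genes whose pattern over the 32 group means was most like each member were found by Pearson's r, as a description over groups that share strains, courses and array sets. For Tlr3 these were Dhx58 (r = 0.96), Ddx60 (0.95) and Etnk1 (0.95), the first being an RNA-binding helicase of antiviral sensing. For Tlr1 they were the kinase Ikbke (0.96), F10 (0.95) and Agtrap (0.95), and for Tlr2 the co-stimulatory ligand Icosl (0.96), Zc3h12c (0.96) and the ribonuclease Zc3h12a (0.96). Tlr4 went with Ccm2 (0.93), Rhov (0.92) and Akr1b10 (0.91), Tlr6 with Rnf11 (0.93), the pore-forming Gsdmd (0.92) and Fam241a (0.92), and Tlr13 with Fam111a (0.94), Gab3 (0.93) and Rasa3 (0.93).

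The other members had less similar partners. Tlr8 went with Stx16 (0.91), Dennd1b (0.90) and Plekha2 (0.89), and Tlr7 with Ms4a4b (0.88), Polb (0.86) and Csprs (0.86). Cd14 went with the acute phase gene Orm2 (0.85), Gas7 (0.84) and Slc24a5 (0.81), and Tlr9 with the receptor kinase Axl (0.82), Crim1 (0.81) and Dnase1l3 (0.80). Among the members themselves, Tlr3 and Tlr8 had r = 0.86, and Tlr2 and Tlr4 r = -0.84, over the same 32 means. No member was among the closest 3 of another.

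Other receptors of the family were dim or fell. Tlr5, the flagellin receptor, fell in every course, by -1.32 ± 0.21 with IFN-beta, -1.13 ± 0.21 with IFN-gamma and -1.57 ± 0.21 with LPS in BALB/c, and from 1 h by -2.08, -2.31 and -2.21 in C57BL/6 from the highest dose to the lowest. Tlr11 lay under 4.19 on all 64 arrays and Tlr12 on 61, the latter rising with IFN-gamma (1.80 ± 0.27 at 24 h). Of 5 accessory genes, Ly86, which pairs with Cd180, rose in each BALB/c course (1.54, 1.64 and 1.33 ± 0.14 for IFN-beta, IFN-gamma and LPS), and the lipid receptor Cd36 fell with LPS (-1.09 ± 0.18). Of 9 measured genes that carry or cleave endosomal receptors, such as Unc93b1, none was called in any BALB/c course or from 1 h in C57BL/6. Group means of Unc93b1 ran from 11.15 to 11.82.

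Of the 6 adaptors that couple the receptors to kinases, 1 rose with each interferon, Myd88 (1.03 ± 0.10 with IFN-beta, 1.25 ± 0.10 with IFN-gamma). With LPS in BALB/c 4 rose, namely Ticam2 (1.55 ± 0.15), Myd88 (1.35 ± 0.10), Ticam1 (1.25 ± 0.15) and Tirap, and from 1 h in C57BL/6 3, 4 and 1 rose from the highest dose to the lowest. The median of their largest changes was 0.55 with IFN-beta, 0.35 with IFN-gamma and 1.16 with LPS, beside -0.19 over all genes in each. Of 11 measured kinases and ubiquitin ligases, 1, 2 and 4 rose in the BALB/c courses and 4, 4 and 3 from 1 h in C57BL/6. Of all genes 4.05%, 3.1% and 7.44% rose with IFN-beta, IFN-gamma and LPS in BALB/c. From 1 h in C57BL/6 5.95%, 6.29% and 4.35% of all genes rose, from the highest dose to the lowest. These shares also stand beside the counts of genes that rose in the other lists. The ligase Peli1 rose in all, by 2.63 ± 0.14 with IFN-beta, 1.42 ± 0.14 with IFN-gamma and 3.03 ± 0.14 with LPS in BALB/c, and Irak2 by 2.09 ± 0.11 with LPS.

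Of 9 measured inhibitors, Socs1 and Trafd1 rose with either interferon (Socs1 by 3.93 ± 0.25 and 3.65 ± 0.25), and Irak3, a kinase-like brake, fell with IFN-beta (-1.01 ± 0.13). With LPS in BALB/c 5 rose and 1 fell: Tnfaip3 (3.79 ± 0.13 at 1 h), Socs1 (3.09 ± 0.25) and Nfkbia (2.97 ± 0.12) rose most, Irak3 rose by 2.22 ± 0.13, and Sigirr fell (-1.29 ± 0.17). Of all genes 9.72% fell with LPS in BALB/c. From 1 h in C57BL/6 3 inhibitors rose at each dose, and 2, 2 and 0 fell. Of 9 measured transcription factors that bind promoters of such genes, 3 rose with IFN-beta (Stat2 2.33 ± 0.24, Irf7 2.07 ± 0.34, Irf9 1.13 ± 0.12), 3 with IFN-gamma (Stat2 1.86 ± 0.24, Irf8 1.81 ± 0.12, Irf7 1.67 ± 0.34) and 4 with LPS (Stat2 2.28 ± 0.24, Irf7 2.19 ± 0.34, Rel 1.98 ± 0.13). In C57BL/6 from 1 h 4, 5 and 3 rose, and Irf8 fell at 5 ng/ml (-1.06 ± 0.12).

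Of 8 genes listed as a check of the treatments, 6 rose with IFN-beta, 7 with IFN-gamma and 8 with LPS in BALB/c, among them Cxcl10 by 6.39 ± 0.26, 5.77 ± 0.26 and 6.08 ± 0.26. Of markers of other cells, 6 of 7 granulocyte and 3 of 4 stromal genes lay above 4.19 in most arrays, and 1 each of 4 B cell, 5 T and NK cell, 5 dendritic and 2 erythroid genes. The highest group means were 9.17 for Pdgfrb, 7.75 for Dcn, 7.20 for Ngp, 6.87 for Cd79b and 4.69 for Cd3e, and Flt3 was under 4.19 on 56 arrays. Some markers moved with LPS in BALB/c: of 4 stromal genes Dcn (4.12 ± 0.24) and Pdgfrb (3.25 ± 0.22) rose and Col1a1 stayed between 4.83 and 5.47 over all groups, of 5 dendritic genes Ccr9 (1.76 ± 0.21) rose, and the macrophage genes Fcgr1 (2.04 ± 0.16) and Adgre1 (1.12 ± 0.09) rose. Of the granulocyte, B cell, T and NK cell and erythroid genes measured, none was called there by limma. From 1 h in C57BL/6, from the highest dose to the lowest, Dcn rose by 2.83 and 2.55 and least with the lowest dose, Pdgfrb by 2.39, 3.63 and 2.70, Ccr9 by 1.63, 2.14 and 1.38 and Fcgr1 by 2.16, 2.52 and 2.11. Over all arrays the log2 of the summed stromal genes ran from 6.45 to 9.47, and their part in the receptor changes was not tested.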

How the data were processed

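The deposited table holds 1 intensity value per probe set and array for 64 Affymetrix arrays, on a linear scale, made by the authors with Affymetrix Expression Console 1.1 per the submitters' processing notes. The normalisation, background correction, summarisation and genome build are not given in the sources used here. Values ran from 2.49 to 17782 with array medians from 25.6 to 29.0. Here log2 of the deposited intensities was taken with no further scaling. How precise a value is depends on the number of arrays.

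Of 35556 probe sets, 21218 name 1 gene in the platform's table, 1881 several and 12457 none. Genes with more than 1 such probe set (1386) were read from the brightest one, which gave 18820 genes. All 32 groups of 2 arrays were fitted in 1 limma model (limma 3.58.1 and data.table in version 1.17.8, run in R 4.3.3, with 32 residual degrees of freedom) with empirical Bayes moderation, 20 comparisons of 91 contrasts, a moderated F-test over the times of a comparison and Benjamini-Hochberg adjustment over all genes. A call needs an adjusted p under 0.05 and a change of at least 1 log2 at 1 or more times. The script was tested on simulated data.

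The genes described and the gene lists were chosen with earlier results of these data known. Beyond the members and lists, the genes named are for each member the 3 with the highest Pearson's r over the 32 group means, leaving out provisional gene names. The array sets come from the first component of the differences between replicates over probe sets without a gene (11.4% of their variance, scores over 0.1 forming the smaller set); no label gives them. Arrays stand apart where 10 or more genes lie over 1.5 log2 from their replicate and the other array lies closer to a neighbouring group. Replicate numbers did not pair the arrays throughout: over 496 pairs of groups the correlation of deviations ran from -0.47 to 0.55, with a median of 0.0046 and 46 pairs over 0.1. In the groups split by array set, replicate 2 was the array of the smaller set except at 4 h of IFN-gamma.

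Alternatives were centring, averaging probe sets that name the same gene, a fit of the compared arrays alone, a trended robust fit, no minimum change, leaving out dim probe sets, quantile normalisation, the array set as a covariate or the larger set alone, leaving out the arrays that stand apart, the replicate number as a block, and leaving out each array in turn. The array set as a covariate together with leaving out the arrays that stand apart was added after seeing the data.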

Additional observations from a re-analysis of the deposited data

Results flagged for a closer look

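The LPS response from 0 h at 5 ng/ml differed between BALB/c and C57BL/6, whose arrays labelled 0 h carry LPS-inducible transcripts, by a test of the difference of changes in limma, for 4 genes. The differences, BALB/c minus C57BL/6 on the log2 scale, were 1.83 for Tlr3 at 4 h, 1.47 for Tlr2 at 1 h, 1.20 for Tlr1 at 4 h and 1.19 for Tlr8 at 4 h. None of these was called when the response was counted from 1 h, where the values at the same times were 0.58 for Tlr3, 0.40 for Tlr1 and 0.63 for Tlr8.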

How the results depend on the processing

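Without the minimum change, counts of the 10 genes were 10 for either interferon course, 9 for LPS in BALB/c from 1 h, and 10, 10 and 10 for LPS 50 ng/ml from 0 h and from 1 h and 5 ng/ml from 0 h. They were 9 for 0.5 ng/ml from 1 h, 7 for 50 against 0.5 ng/ml, 1 for 50 against 5, 8 for 5 against 0.5, 4 for the strains at 0 h, 7 for the strains under LPS, and 5 for the strain difference of the response from 1 h. The share of all genes under this looser rule is not given, so these counts are not read as a result about the 10 genes. Centring each array left 1 of 2 calls between strains at 0 h (Tlr9 at -0.99), and leaving out any of its 4 arrays left 1. Quantile normalisation left 1 of 3 calls between strains under LPS, with Tlr8 at 0.97 and Cd14 at 0.99. For 0.5 ng/ml from 1 h, 8 genes were called without the arrays that stand apart, and between 4 and 8 with 1 array left out. The cause was not tested.

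The sign turned for differences that were not called: Tlr7 in the strain difference from 1 h at 2 h was -0.22 as reported, 0.099 in the larger array set and 0.070 with the set as a covariate and without the arrays that stand apart. Tlr1 at 1 h of 50 against 5 ng/ml was 0.43 as reported, -0.022 without the arrays that stand apart, with or without the covariate, and from -0.022 to 0.87 with 1 array left out. The Tlr9 strain difference from 0 h (1.22 at 8 h, adjusted p = 0.083 over all times) passed the threshold with the array set as a covariate (adjusted p = 2.6e-06) and in the larger set (adjusted p = 6.4e-07). The replicate block changed no count, with 9 genes for LPS in BALB/c and 4 for IFN-beta. Of single values for the 10 genes, 2271 kept direction and side of the threshold under settings other than leaving out 1 array, 96 gained the call, 15 lost it and 4 turned sign. Most gains came from the setting without the minimum change, which can only add calls, so gains are not to be weighed against losses.

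In the fit without the array set, Tlr9 had an SE of 0.28, against 0.10 for Tlr13 and 0.11 for Cd14. With 2 arrays per group, a change of 1 log2 in Tlr9 is less firmly placed in that fit. Tlr9 was lower on the smaller set (-0.73 ± 0.06), and with the set as a covariate its SE was smaller.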
